A study of Mus musculus with 11 samples.

Results

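The 10 genes of collagen modification and folding described here were the prolyl 4-hydroxylase subunits P4ha1, P4ha2 and P4ha3, the lysyl hydroxylases Plod1, Plod2 and Plod3, the prolyl 3-hydroxylase complex of P3h1, Crtap and Ppib, and the collagen chaperone Serpinh1. They were chosen by name, as a list, from the 55421 genes that were counted in articular cartilage of mouse knees by bulk sequencing of poly(A) RNA. All 10 were in the files and all 10 passed the filter on low counts, which left 18125 genes to test.

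Operated knees had undergone destabilization of the medial meniscus (DMM), surgery that loosens a meniscus and is used to model osteoarthritis. Knees labelled c-FosDCh DMM gave 4 libraries, knees labelled c-FosWT DMM gave 3, and the unoperated contralateral knees of c-FosWT mice gave 4. All mice were C57BL/6, 14 weeks old, and the tissue was taken 4 weeks after the operation. By their titles, the libraries within each group came from different animals, 8 in all, and the unoperated knee of every animal in c-FosWT DMM was sequenced as well. The source labels differ from this on 1 point: replicates 1 and 2 of c-FosDCh DMM carry the same sample number there under 2 different animal names. They were counted as 2 animals. The name c-FosDCh is read here as a loss of Fos in chondrocytes. The labels do not spell it out, and they give neither the driver of the Cre nor the deleted part of the gene. No contralateral c-FosDCh knee was analysed here, so genotype without surgery was not compared.

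Collagen chains are made in the endoplasmic reticulum, where they are hydroxylated before they wind into a triple helix. Prolyl 4-hydroxylase, a tetramer of P4HA catalytic subunits and the protein disulfide isomerase P4HB, makes the 4-hydroxyproline that keeps the helix stable at the temperature of the body. Lysyl hydroxylases (PLOD) make the hydroxylysine on which sugars and later crosslinks are placed, with PLOD2 known for the telopeptide lysines that give hydroxylysine-derived crosslinks. The complex of P3H1, CRTAP and the proline isomerase PPIB (cyclophilin B) 3-hydroxylates single prolines and helps folding, and SERPINH1 (HSP47) binds the finished helix until it leaves the endoplasmic reticulum. The hydroxylases use molecular oxygen, iron and ascorbate, and P4ha1, P4ha2 and Plod2 are known targets of hypoxia-inducible factors in several cell types.

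Libraries held between 13593454 and 18280558 gene counts (median 16387548), of which the 10 genes together took 0.107 to 0.315% (17220 to 48428 counts). Fos, the targeted gene, is given in CPM, the count scaled to the effective size of its library. It stood at 19.4, 10.9, 29.5 and 33 CPM in knees labelled c-FosDCh DMM, against 12.1, 14.1 and 9.01 CPM in c-FosWT DMM and 17.1, 24.8, 22 and 15.7 CPM in contralateral libraries. Its mean was not below that of c-FosWT DMM (log2 fold change 0.98 ± 0.35, SE, edgeR adjusted p = 0.0736), and these counts did not check the genotype, so each direction given for the libraries labelled c-FosDCh rests on the label. None of the 12 chondrocyte markers was at 0 in any library, and none of the 23 marrow markers was. The chondrocyte markers Matn3 and Matn1, however, fell to 1 count in their lowest library (0.073 and 0.0573 CPM). A marrow score, averaged in log2 CPM over the erythroid and granulocyte markers, stood at 8, 7.99, 6.59 and 4.44 over the 4 c-FosDCh DMM replicates, against 8.51, 8.82 and 9.28 in c-FosWT DMM and 7.74, 7.03, 7.02 and 8.61 in contralateral libraries. Summed marrow marker levels ran from 881 to 14700 CPM in c-FosDCh DMM, from 15900 to 27700 CPM in c-FosWT DMM and from 6050 to 17400 CPM in contralateral libraries. The libraries c-FosWT DMM replicate 1 and contralateral replicate 2 stood apart by skeletal muscle scores of 8.96 and 8.22, where the other 9 lay between 1.64 and 5.87.

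Set per kilobase of merged exon, the scale on which genes can be compared, Serpinh1 was the most abundant of the 10 in each group, at 248 ± 34.8 CPM per kb in c-FosDCh DMM, 190 ± 63 in c-FosWT DMM and 259 ± 38.6 in contralateral libraries (SD, n = 4, 3 and 4). Plod2 was second, at 141 ± 83.9, 42 ± 16.4 and 84.7 ± 16.8 CPM per kb in these groups. P4ha3 was last in each group, at 4.32 ± 2.5, 3.37 ± 0.969 and 4.45 ± 2.01 CPM per kb. The gene whose place in the order moved most was P4ha2, which ranked 4 in c-FosDCh DMM at 53.5 ± 33 CPM per kb, 9 in c-FosWT DMM at 9.75 ± 4.9 and 6 in contralateral libraries at 24.9 ± 6.62. Between these ends lay P4ha1 (70.5, 23.3 and 50.2 CPM per kb in the same group order), Ppib (45.1, 34 and 46), Crtap (46.2, 26.2 and 45.2), P3h1 (28.2, 15.9 and 21.7), Plod3 (25.4, 17.5 and 21.4) and Plod1 (22, 12.3 and 16.7). Many neighbours in the order overlapped: in c-FosDCh DMM, Ppib over P3h1 and Plod1 over P4ha3 were the only steps with every library of the higher gene above every library of the next. In c-FosWT DMM such steps were Serpinh1 over Plod2 and P4ha2 over P4ha3, and in contralateral libraries they were Serpinh1 over Plod2, Crtap over P4ha2, Plod3 over Plod1 and Plod1 over P4ha3. With the longest transcript in place of merged exons, Serpinh1, Plod2 and P4ha3 held the first, second and last places in each group, while P4ha2 ranked 3, 8 and 4.

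**Figure D1:**
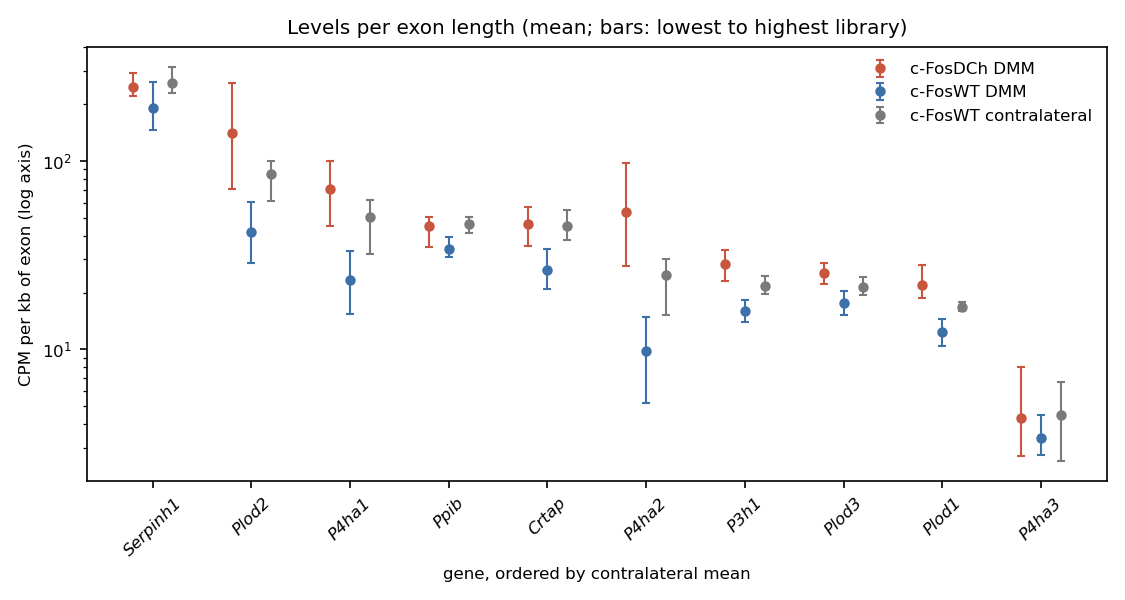
Mean level of each gene in CPM per kb of merged exon on a log axis, with bars from the lowest to the highest library, for c-FosDCh DMM (n = 4), c-FosWT DMM (n = 3) and c-FosWT contralateral (n = 4) libraries. Serpinh1 leads and P4ha3 is last in each group, and P4ha2 averages 53.5 CPM per kb in c-FosDCh DMM and 9.75 in c-FosWT DMM.

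Operated knees of the 2 genotypes, as labelled, were compared first. Without unoperated c-FosDCh knees, this comparison cannot separate a different response to DMM from a difference present before it. Of the 10 genes, 7 passed at an adjusted p under 0.05 in edgeR's quasi-likelihood test over all 18125 genes, and all 7 had their higher mean in c-FosDCh DMM, as labelled: P4ha1, P4ha2, Plod1, Plod2, Plod3, P3h1 and Crtap. In the same comparison 14.4% of all tested genes were called, 10.6% higher and 3.79% lower (1929 and 687 genes). The largest differences were those of P4ha2 (5.49-fold), Plod2 (3.36-fold) and P4ha1 (3.02-fold), while the other 4 called genes lay between 1.45- and 1.78-fold. The median log2 fold change of the 10 genes was 0.82, beside -0.01 over all tested genes. All 10 fold changes were positive, as were 49.5% of those of all tested genes, while 50.5% were negative. In bulk tissue, fewer cells of a type and less RNA per cell cannot be told apart. The call rested on few libraries. None of the 10 genes passed without c-FosDCh DMM replicate 3 or 4, c-FosWT DMM replicate 2 or 3, or contralateral replicate 1. In these fits the lowest adjusted p over all 18125 genes lay between 0.057 and 0.142. Contralateral libraries entered this comparison only through the spread and scaling estimated over all libraries. With 1 library left out, log2 fold changes were 1.99 to 2.87 for P4ha2 and 1.35 to 1.91 for P4ha1. For P4ha3 they were -0.13 to 0.59. Without c-FosDCh DMM replicate 1 or 2, which share a number in the source labels, 7 and 8 of the 10 passed. None passed with the marrow score as a covariate. The log2 fold changes of the 10 genes were then 0.17 to 1.19 and the lowest adjusted p was 0.363. That score did not overlap between the operated groups, so marrow content and group cannot be told apart in this fit.

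Of the catalytic subunits of prolyl 4-hydroxylase, P4ha1 and P4ha2 passed, both higher than in c-FosWT DMM, and P4ha3 did not pass. P4ha1 lies on chromosome 10 (ENSMUSG00000019916.14, 59323296 to 59373304, forward strand, GRCm38), P4ha2 on chromosome 11 (ENSMUSG00000018906.14, 54100095 to 54131665, forward) and P4ha3 on chromosome 7 (ENSMUSG00000051048.17, 100285520 to 100319699, forward). The RefSeq start used for P4ha2 lies inside its GENCODE span. The 250 bases before the RefSeq start of each (GRCm38.p6) are shown because the levels of P4ha1 and P4ha2 moved side by side over the libraries (r = 0.98) and those of P4ha3 did not. Capitals mark the core letters of the hypoxia response element, ACGTG or GCGTG, which appear as CACGT or CACGC where they lie on the opposite strand.
P4ha1, chr10:59323046-59323295, forward strand: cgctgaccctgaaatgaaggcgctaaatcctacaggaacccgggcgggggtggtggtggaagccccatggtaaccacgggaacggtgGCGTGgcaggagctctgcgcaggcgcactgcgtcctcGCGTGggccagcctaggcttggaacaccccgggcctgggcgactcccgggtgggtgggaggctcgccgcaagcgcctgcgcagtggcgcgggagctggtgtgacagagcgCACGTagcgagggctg
P4ha2, chr11:54100674-54100923, forward strand: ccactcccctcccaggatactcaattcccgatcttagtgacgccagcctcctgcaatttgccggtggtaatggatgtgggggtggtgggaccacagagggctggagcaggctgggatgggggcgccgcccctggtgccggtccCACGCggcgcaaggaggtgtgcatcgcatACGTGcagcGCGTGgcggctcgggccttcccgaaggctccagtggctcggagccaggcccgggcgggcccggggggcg
P4ha3, chr7:100285270-100285519, forward strand: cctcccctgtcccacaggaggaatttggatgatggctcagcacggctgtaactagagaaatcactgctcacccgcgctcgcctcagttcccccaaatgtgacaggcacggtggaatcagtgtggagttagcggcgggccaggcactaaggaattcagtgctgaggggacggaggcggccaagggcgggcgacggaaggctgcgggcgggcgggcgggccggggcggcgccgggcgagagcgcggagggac
The core letters begin at -163, -126 and -16 in P4ha1 and at -107, -78 and -69 in P4ha2, counted from the start, and P4ha3 has 0 matches. Of 32851 RefSeq promoters of this length, 38.6% hold the core at least once and 6.58% hold it 3 times or more. These windows are rich in G and C, with 69.6, 70 and 67.2% against a median of 52.4% over all promoters. The AP-1 motif TGANTCA, the site of Fos and Jun dimers, has 0 matches on either strand in the windows of the 9 genes with an entry (all but Plod2), and 6.75% of all promoters hold it. Among the other 6 genes with an entry the hypoxia core matched 4 times in Plod3 and Ppib, 3 times in Crtap, 2 times in P3h1 and 1 time in Plod1 and Serpinh1. A match is a string of letters, and no match says only that these letters are not in this window.

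P4ha2 had 180, 172, 373 and 609 CPM in knees labelled c-FosDCh DMM, against 93.2, 32.5 and 56.7 CPM in c-FosWT DMM libraries. Every c-FosDCh DMM library was above every c-FosWT DMM library, and replicates 3 and 4 of c-FosDCh DMM held the highest levels. The log2 fold change was 2.46 ± 0.53 (SE, 95% interval 1.28 to 3.63, adjusted p = 0.0332). P4ha1, the main catalytic subunit in most tissues, had 203, 185, 360 and 412 CPM, against 137, 63 and 88.1 CPM, again with no overlap, and a log2 fold change of 1.60 ± 0.38 (0.76 to 2.43, adjusted p = 0.0336). P4hb, the beta subunit shared by all of these enzymes, had 618, 598, 898 and 1040 CPM in c-FosDCh DMM, against 475, 369 and 440 CPM in c-FosWT DMM (log2 fold change 0.88 ± 0.22, adjusted p = 0.0364). P4ha3, the least abundant subunit, had 11.2, 25.2, 8.51 and 9.21 CPM in c-FosDCh DMM, against 14.1, 8.65 and 8.96 CPM in c-FosWT DMM. These groups overlapped, and replicate 2 of c-FosDCh DMM alone set the group's mean above that of c-FosWT DMM: the log2 fold change was 0.36 ± 0.45 (-0.64 to 1.37, adjusted p = 0.556), and -0.13 without that library. Leaving out both c-FosDCh libraries with the lowest marrow scores, replicates 3 and 4, gave log2 fold changes of 1.53 for P4ha2 and 1.01 for P4ha1, and with the marrow score as a covariate they were 1.19 and 0.81.

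**Figure D2:**
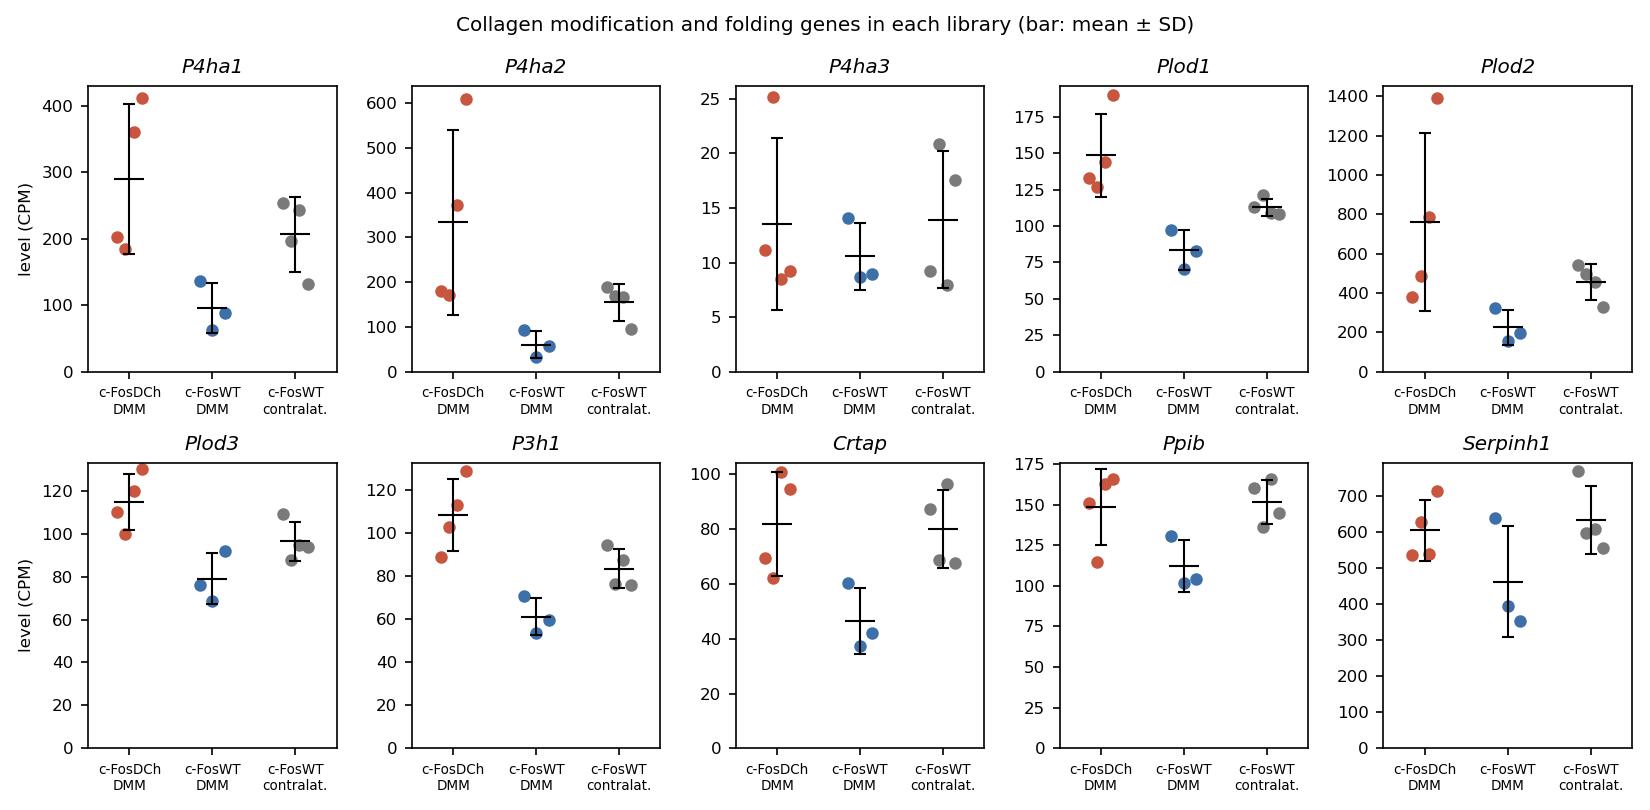
Level in CPM of the 10 genes in each library of the c-FosDCh DMM (n = 4), c-FosWT DMM (n = 3) and c-FosWT contralateral (n = 4) groups, with the mean and SD as bars and replicates in order from left to right. P4ha1, P4ha2 and Plod2 show the largest fold differences between the means of the operated groups, with replicates 3 and 4 of c-FosDCh DMM on top. For Plod2 the nearest libraries of these groups are close, at 381 and 325 CPM. The P4ha3 groups overlap, with 1 c-FosDCh DMM library at 25.2 CPM.

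Among lysyl hydroxylases, Plod2 differed most. Its locus is on chromosome 9 (ENSMUSG00000032374.14, 92542223 to 92608428, forward strand). It had 381, 488, 785 and 1390 CPM in knees labelled c-FosDCh DMM, against 325, 155 and 199 CPM in c-FosWT DMM, and although the groups did not overlap, c-FosDCh DMM replicate 1 was close to c-FosWT DMM replicate 1. The log2 fold change was 1.75 ± 0.45 (0.76 to 2.74, adjusted p = 0.0368). It was 0.93 without c-FosDCh DMM replicates 3 and 4, and 0.63 with the marrow score as a covariate. Plod1 (ENSMUSG00000019055.15, chromosome 4, 147909753 to 147936767, reverse strand), which acts on lysines of the helix, had 133, 127, 144 and 190 CPM in c-FosDCh DMM, against 97.4, 70.3 and 82.7 CPM in c-FosWT DMM (0.83 ± 0.16, adjusted p = 0.0332). Plod3 (ENSMUSG00000004846.10, chromosome 5, 136987019 to 136996648, forward strand), whose enzyme also adds the glucose and galactose of hydroxylysine, had 110, 99.7, 120 and 130 CPM in c-FosDCh DMM, against 76, 68.8 and 92.1 CPM in c-FosWT DMM (0.54 ± 0.13, adjusted p = 0.0356). No library of Plod1 or Plod3 overlapped between these groups, and the spread within each group was smaller than for Plod2. Of the exon bases, 6.42% of Plod2 lie opposite Gm38391 and 11.71% of Plod3 opposite Znhit1, genes with at most 362 and 384 counts in a library, and since the strand setting of the counting is not given, a share of those reads could be misplaced.

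In the prolyl 3-hydroxylase complex, P3h1 and Crtap passed, both higher than in c-FosWT DMM, and Ppib did not pass. P3h1, the enzyme (ENSMUSG00000028641.16, chromosome 4, 119232915 to 119248975, forward strand), had 88.9, 103, 113 and 129 CPM in knees labelled c-FosDCh DMM, against 70.6, 53.5 and 59.6 CPM in c-FosWT DMM (log2 fold change 0.83 ± 0.15, adjusted p = 0.0332). Crtap, its non-enzymatic partner (ENSMUSG00000032431.6, chromosome 9, 114375134 to 114390675, reverse strand), had 69.4, 62.3, 101 and 94.7 CPM, against 60.3, 37.2 and 42 CPM in c-FosWT DMM (0.82 ± 0.23, adjusted p = 0.0429). Both genes had every c-FosDCh DMM library above every c-FosWT DMM library. Ppib (ENSMUSG00000032383.7, chromosome 9, 66060222 to 66066623, forward strand) had 151, 115, 163 and 166 CPM in c-FosDCh DMM, against 131, 102 and 104 CPM in c-FosWT DMM, with overlap through c-FosDCh DMM replicate 2 (0.41 ± 0.15, 0.07 to 0.74, adjusted p = 0.081). Without that library Ppib passed as well, with an adjusted p of 0.0259. Of its exon bases, 24.96% lie opposite Snx22, which had 37 to 485 counts in a library. Serpinh1, the chaperone (ENSMUSG00000070436.12, chromosome 7, 99345376 to 99353239, reverse strand), had 537, 628, 540 and 716 CPM in c-FosDCh DMM, against 639, 395 and 355 CPM in c-FosWT DMM. Its groups overlapped through c-FosWT DMM replicate 1, the library with the highest muscle score, and its log2 fold change was 0.39 ± 0.22 (-0.10 to 0.88, adjusted p = 0.206).

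Over the 10 genes, 7 had every c-FosDCh DMM library above every c-FosWT DMM library, which held for 17.2% of all tested genes, and 0 had every library below, as 15.8% of all genes did. Of the 10, 8 had an unadjusted p under 0.05, as did 39% of all tested genes. Of the marrow markers, the 11 tested erythroid genes had a median log2 fold change of -2.15, and 6 of them were called lower in c-FosDCh DMM. The 12 granulocyte genes had a median of -1.04 with 0 called by edgeR and 0 at an unadjusted p under 0.05, and their score overlapped between the groups, at 9.04, 8.34, 7.11 and 4.19 in c-FosDCh DMM, against 8.56, 8.96 and 9.45 in c-FosWT DMM. Other cell type scores were also lower and did not overlap: the macrophage and osteoclast score was 4.51 to 6.25 in c-FosDCh DMM and 6.64 to 6.85 in c-FosWT DMM, and the endothelial score 3.25 to 5.08 and 5.29 to 5.53. Of the 11 macrophage and osteoclast genes 3 were called lower, and of the 10 endothelial genes 0 were called lower and 1 higher. The B cell score was 0.74 to 4.22 and 4.05 to 5.52, and the osteoblast and osteocyte score 4.98 to 6.95 and 6.44 to 6.81, each with c-FosDCh DMM replicate 4 lowest. The fibroblast and tendon score, at 5.44 to 6.30 and 5.18 to 5.90, overlapped as well, with 3 of 12 genes called higher. The part of these cell types in the levels of the 10 genes was not tested, and only the marrow, muscle and chondrocyte scores were entered as covariates. The marrow score did not overlap between the operated groups, at 4.44 to 8 in c-FosDCh DMM and 8.51 to 9.28 in c-FosWT DMM. Marrow content and group therefore cannot be told apart by that fit. The chondrocyte score was 7.85 ± 0.59 in c-FosDCh DMM and 7.34 ± 1 in c-FosWT DMM, and the skeletal muscle score 4 ± 1.45 and 5.79 ± 2.82 (SD, n = 4 and 3). Summed chondrocyte marker levels did not overlap, at 18900 to 67400 CPM in c-FosDCh DMM and 5600 to 14900 CPM in c-FosWT DMM. In that sum Prg4 alone ranged from 989 to 38700 CPM over all libraries. Among the 12 chondrocyte genes 4 were called higher and 0 lower, beside 10.6 and 3.79% of all tested genes. Their log2 fold changes ran from -5.04 to 3.21 with a median of 1.26. With the muscle score or the chondrocyte score as a covariate 0 of the 10 genes passed, at a lowest adjusted p of 0.0559 and 0.0648, and the log2 fold change of P4ha2 was 2.63 and 2.10. Without both muscle-rich libraries 0 passed at a lowest adjusted p of 0.0588, with 9 of 10 at an unadjusted p under 0.05 and P4ha2 at 2.87. DESeq2 and limma-voom on the same libraries each called 7 of the 10.

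**Figure D3:**
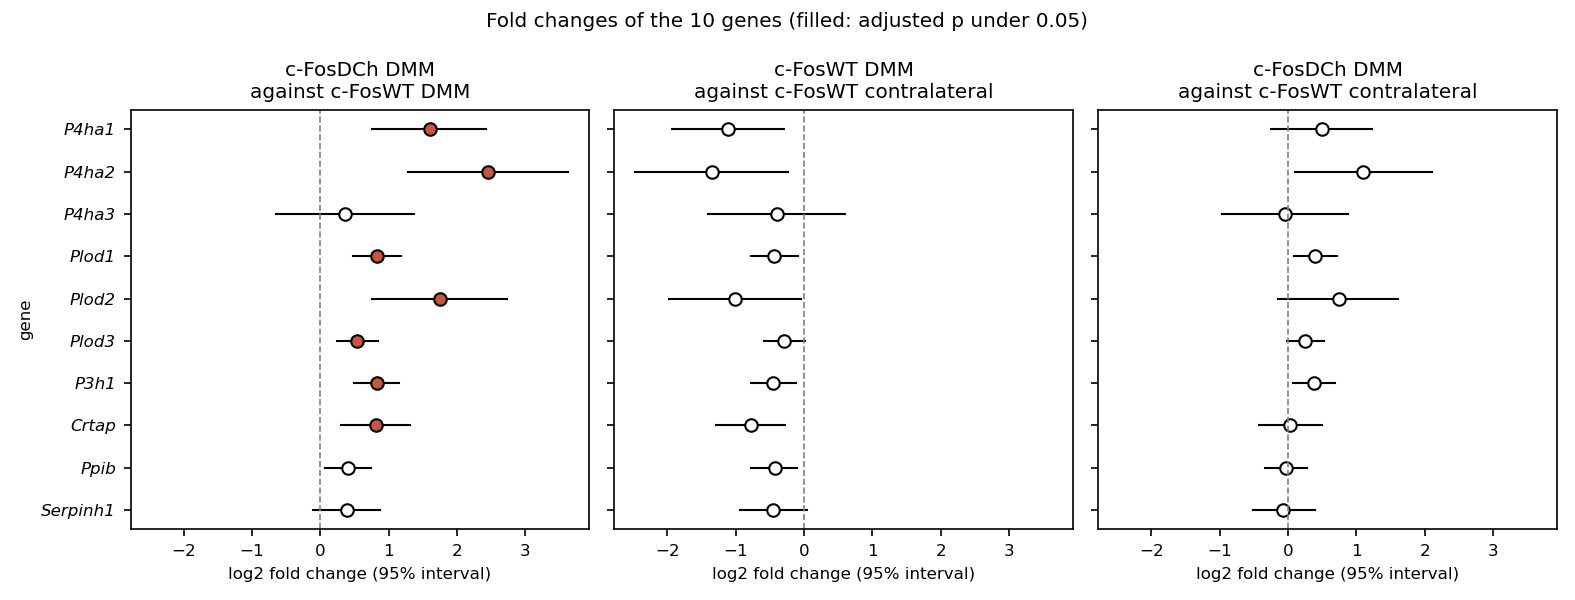
Log2 fold change with its 95% interval (edgeR) for each of the 10 genes in the comparisons of c-FosDCh DMM with c-FosWT DMM, of c-FosWT DMM with contralateral and of c-FosDCh DMM with contralateral libraries, with filled points where the adjusted p was under 0.05. The 7 filled points are all in the comparison of operated knees, and all 10 points of the comparison of c-FosWT DMM with contralateral knees lie below 0.

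Genes that act beside the 10 were looked at by role, from lists written with earlier results of these data known. Between the operated groups 10.6% of all tested genes were called higher in c-FosDCh DMM and 3.79% lower. Of 10 other collagen-modifying and folding genes, 8 were called higher in the libraries labelled c-FosDCh DMM, 0 lower and 2 not, with a median log2 fold change of 0.98. They included P3h3 (1.04 ± 0.21), a relative of P3h1, P3h4 (1.47 ± 0.30), a partner of lysyl hydroxylase 1, the collagen galactosyltransferase Colgalt2 (2.78 ± 0.57) and the isomerase Fkbp10 (0.92 ± 0.20), each at an adjusted p of 0.0332. Colgalt1, a second galactosyltransferase gene named after its values were seen, averaged 104 ± 12.7 CPM in c-FosDCh DMM and 104 ± 13.6 CPM in c-FosWT DMM (0.01 ± 0.12, adjusted p = 0.973). Of 11 genes of collagen export, 4 were called higher and 1 lower, with a median of 0.34. Among them were Creb3l2, a transcription factor of secretory genes in cartilage (1.32 ± 0.33, adjusted p = 0.0362), the COPII coat gene Sec24d (1.02 ± 0.29, 0.0445), the retrieval receptor gene Kdelr2 (0.81 ± 0.23, 0.0447) and Klhl12, a ubiquitin ligase adaptor for large COPII carriers, which was lower (-0.58 ± 0.15, 0.0387). Of 12 general chaperones and stress genes of the endoplasmic reticulum, 0 were called by edgeR, DESeq2 or limma-voom, 3 had an unadjusted p under 0.05 in each, and the median was 0.40. That median rested on c-FosDCh DMM replicate 4 and was 0.06 without it, while edgeR called 1 and 2 of the 12 higher without replicate 1 and without replicate 2. Hspa5, the chaperone BiP, named after its values were seen, had 400, 417, 464 and 1260 CPM in c-FosDCh DMM, against 406, 356 and 409 CPM in c-FosWT DMM. The smallest p values there belonged to Pdia4 (0.54 ± 0.20, adjusted p = 0.0788) and Xbp1 (0.62 ± 0.24, adjusted p = 0.0893).

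The collagen genes themselves, whose products the 10 proteins act on, were mixed. Calls in this list and the next stand beside 10.6% of all tested genes called higher and 3.79% lower. Of 16 chains, 4 were called higher and 0 lower, with a median of 0.52: Col10a1 of hypertrophic cartilage (2.67 ± 0.65, adjusted p = 0.0349) and the pericellular chains Col6a2 (1.01 ± 0.25, 0.0349), Col6a1 (0.92 ± 0.24, 0.0394) and Col6a3 (0.93 ± 0.27, 0.0467). Col1a1, the chain of bone and fibrous tissue, had 21300, 53400, 12300 and 16500 CPM in c-FosDCh DMM, against 33600, 33400 and 31100 CPM in c-FosWT DMM. Replicate 2 of c-FosDCh DMM was far above the rest and the other 3 were below every c-FosWT DMM library (log2 fold change -0.34 ± 0.48, adjusted p = 0.602). Col2a1, the main chain of hyaline cartilage, had 6080, 5290, 10700 and 11700 CPM in c-FosDCh DMM, against 6280, 2330 and 6350 CPM in c-FosWT DMM, with overlap (0.76 ± 0.47, adjusted p = 0.239). Of 13 hypoxia targets other than the 10 genes, 9 were called higher and 0 lower, with a median of 1.45. The smallest p values belonged to Car9, a carbonic anhydrase (1.52 ± 0.32), Vegfa, the vascular growth factor (1.45 ± 0.31), Slc2a1, a glucose transporter (2.44 ± 0.53), and Bnip3, a mitophagy receptor (2.13 ± 0.48), each at an adjusted p of 0.0332. Without c-FosDCh DMM replicate 3 or 4, 0 genes of these lists passed. With the marrow score as a covariate 0 passed as well, and the median was 0.57 for other collagen-modifying genes, 0.16 for export, -0.15 for general chaperones, 0.40 for collagen chains and 0.68 for hypoxia targets.

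Operated and unoperated knees of c-FosWT mice were then compared, a contrast in which surgery and the tissue content of the libraries cannot be told apart. None of the 10 genes passed, and edgeR called 0% of all 18125 genes (lowest adjusted p 0.182). All 10 had negative log2 fold changes, from -0.29 to -1.35 with a median of -0.45, beside a median of -0.01 over all genes, of which 50.9% were negative and 49.1% positive. At an unadjusted p under 0.05 there were 7 of the 10, beside 19.9% of all genes. DESeq2 called 1 of the 10, Crtap (-0.76, adjusted p = 0.0399), and 902 genes in all, while limma-voom called 0 genes. For 6 of the 10, P4ha2, Plod1, Plod2, P3h1, Crtap and Ppib, every c-FosWT DMM library was below every contralateral library, as was the case for 13.1% of all genes. None of the 10 had every c-FosWT DMM library above, as 10.1% of all genes did. The marrow score stood at 8.87 ± 0.39 in c-FosWT DMM and 7.6 ± 0.75 in contralateral libraries (SD, n = 3 and 4), and the chondrocyte score at 7.34 ± 1 and 8.09 ± 0.48. Of the 2 parts of the marrow score, the erythroid one did not overlap, at 8.46 to 9.09 and 6.41 to 8.2. Each of the 11 erythroid markers had every c-FosWT DMM library above every contralateral one, although edgeR called 0 of them. The granulocyte score overlapped, at 8.56 to 9.45 and 7.4 to 8.99, and 0 of its 12 markers were separated in this way. Summed chondrocyte marker levels were 5600 to 14900 CPM and 18000 to 30600 CPM in these groups, without overlap. With the marrow score as a covariate the 10 log2 fold changes lay between -0.69 and -0.22.

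P4ha2 had 93.2, 32.5 and 56.7 CPM in c-FosWT DMM libraries, against 189, 170, 168 and 95 CPM in contralateral libraries, and no library overlapped, although the highest operated and the lowest unoperated one were close (log2 fold change -1.35 ± 0.50, -2.47 to -0.24, adjusted p = 0.201). P4ha1 had 137, 63 and 88.1 CPM, against 254, 196, 244 and 132 CPM in contralateral libraries, with the highest operated library above the lowest unoperated one (-1.11 ± 0.37, adjusted p = 0.184). Plod2 had 325, 155 and 199 CPM in c-FosWT DMM, against 541, 499, 455 and 331 CPM in contralateral libraries (-1.01 ± 0.43, adjusted p = 0.235). In the 3 animals that gave both knees, the operated knee was lower for each of these 3 genes, by log2 differences of -1.02, -2.38 and -0.74 for P4ha2, -0.89, -1.64 and -0.59 for P4ha1 and -0.73, -1.69 and -0.73 for Plod2. The second animal, whose operated knee was replicate 2, had the largest difference for all 3. With the animal as a block the 3 pairs gave 0 calls among all genes (lowest adjusted p 0.205).

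Crtap had 60.3, 37.2 and 42 CPM in c-FosWT DMM, against 87.4, 68.8, 96.6 and 67.5 CPM in contralateral libraries (-0.78 ± 0.23, adjusted p = 0.182), and Ppib had 131, 102 and 104 CPM, against 160, 136, 166 and 145 CPM (-0.43 ± 0.15, adjusted p = 0.188). P3h1 had 70.6, 53.5 and 59.6 CPM in c-FosWT DMM, against 94.6, 76.4, 87.5 and 75.7 CPM (-0.45 ± 0.15, adjusted p = 0.184). All 3 genes of the complex were thus separated between the groups without passing over all genes. Plod1 had 97.4, 70.3 and 82.7 CPM, against 113, 121, 109 and 108 CPM in contralateral libraries (-0.44 ± 0.16, adjusted p = 0.193). Plod3 had 76, 68.8 and 92.1 CPM, against 109, 87.9, 94.8 and 94 CPM (-0.29 ± 0.13, adjusted p = 0.257), and Serpinh1 had 639, 395 and 355 CPM, against 771, 597, 608 and 557 CPM (-0.45 ± 0.22, adjusted p = 0.28). These 2 overlapped between the groups, as did P4ha3, with 14.1, 8.65 and 8.96 CPM in c-FosWT DMM, against 9.27, 20.9, 7.99 and 17.6 CPM in contralateral libraries (-0.40 ± 0.45, adjusted p = 0.613). Within the 3 animals each of the 10 genes was lower in the operated knee, except P4ha3, whose log2 differences were 0.59, -1.26 and -0.97.

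The companion lists gave 0 calls in edgeR in this comparison. Of the 10 other collagen-modifying genes 9 had negative log2 fold changes and 8 an unadjusted p under 0.05, with a median of -0.69. Fkbp10 (-0.70 ± 0.19) and P3h3 (-0.68 ± 0.20) had the smallest p, and DESeq2 called 2 of the 10. The medians were -0.41 for collagen export, where Klhl12 was at 0.75 ± 0.15 and Kdelr2 at -0.56 ± 0.23, -0.34 for collagen chains, where Col6a2 was at -0.60 ± 0.25 and Col6a1 at -0.53 ± 0.24, and -0.91 for hypoxia targets, where Adm was at -1.92 ± 0.42 and Car9 at -1.24 ± 0.32. At an unadjusted p under 0.05 there were 4 of 11, 1 of 16 and 8 of 13 genes in these lists, and DESeq2 called 1, 0 and 4. General chaperones had a median of -0.06, with Pdia4 at -0.29 ± 0.20 and Pdia3 at -0.18 ± 0.16, and 0 of the 12 at an unadjusted p under 0.05. limma-voom called 0 genes in each list. Col1a1 was at 0.31 ± 0.48 (adjusted p = 0.71), Col2a1 at -0.64 ± 0.47 (adjusted p = 0.45) and P4hb at -0.59 ± 0.22 (adjusted p = 0.201).

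The libraries labelled c-FosDCh DMM were last set against the unoperated c-FosWT knees, a comparison that differs in genotype label and surgery at once and shares its libraries with both other comparisons. None of the 10 genes passed in edgeR, DESeq2 or limma-voom, and edgeR called 0% of all genes (lowest adjusted p 0.584) where DESeq2 called 41 genes. Of the 10, 7 had positive log2 fold changes and 3 negative ones (49.7 and 50.3% over all genes), with a median of 0.31, and 3 had an unadjusted p under 0.05, beside 8.34% of all genes. P4ha2 had 180, 172, 373 and 609 CPM in c-FosDCh DMM, against 189, 170, 168 and 95 CPM in contralateral libraries. Replicates 1 and 2 lay within the unoperated range and replicates 3 and 4 above it (1.10 ± 0.45, adjusted p = 0.584). Plod2 (0.74 ± 0.39, adjusted p = 0.599) and P4ha1 (0.49 ± 0.33, adjusted p = 0.632) had the same pattern, with only replicates 3 and 4 of c-FosDCh DMM above every contralateral library. Without these 2 libraries the log2 fold changes were 0.20 for P4ha2, -0.05 for Plod2 and -0.07 for P4ha1. Plod1 was the only gene of the 10 with every c-FosDCh DMM library above every contralateral one, at 133, 127, 144 and 190 CPM, against 113, 121, 109 and 108 CPM (0.40 ± 0.14, 0.08 to 0.71, adjusted p = 0.584), a separation that 2.28% of all genes showed. None was wholly below, as 2.12% of all genes were.

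P3h1 (0.38 ± 0.14, adjusted p = 0.584) and Plod3 (0.25 ± 0.12, adjusted p = 0.584) were at small positive differences. Crtap (0.03 ± 0.21, -0.43 to 0.49), Ppib (-0.03 ± 0.14, -0.34 to 0.28), P4ha3 (-0.04 ± 0.42, -0.96 to 0.88) and Serpinh1 (-0.07 ± 0.20, -0.52 to 0.39) were near 0, and the intervals do not show that they were alike. The medians of the companion lists were 0.35 for other collagen-modifying genes, 0.25 for export, 0.25 for general chaperones, 0.13 for collagen chains and 0.52 for hypoxia targets, with 0 calls in edgeR, DESeq2 and limma-voom and 3, 0, 0, 1 and 3 genes at an unadjusted p under 0.05. The 2 smallest p values in each list belonged to Tmem38b, a cation channel of the endoplasmic reticulum (0.43 ± 0.12), and Colgalt2 (1.23 ± 0.48), to the export genes Mia3 (0.27 ± 0.14) and Creb3l1 (-0.34 ± 0.17), to the chaperone Hsp90b1 (0.33 ± 0.18) and Xbp1 (0.38 ± 0.22), to Col10a1 (1.45 ± 0.56) and Col6a2 (0.41 ± 0.22), and to Slc2a1 (1.10 ± 0.46) and Kdm3a (0.52 ± 0.22). Col1a1 was at -0.03 ± 0.44, Col2a1 at 0.12 ± 0.43 and P4hb at 0.29 ± 0.20.

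Ratios between relatives within a library do not depend on the scaling of libraries, and differences in them do not depend on gene length. They were chosen after their values were seen. The ratio of P4ha2 to P4ha1 counts was 0.888, 0.933, 1.03 and 1.48 in the libraries labelled c-FosDCh DMM, 0.682, 0.516 and 0.644 in c-FosWT DMM and 0.743, 0.865, 0.69 and 0.718 in contralateral libraries. The 3 groups did not overlap, with c-FosDCh DMM highest and c-FosWT DMM lowest, although c-FosWT DMM replicate 1 and contralateral replicate 3 nearly met. On the log2 scale the difference was 0.80 between c-FosDCh DMM and c-FosWT DMM, a 1.74-fold difference, -0.30 between c-FosWT DMM and contralateral and 0.50 between c-FosDCh DMM and contralateral libraries. Each gave an exact two-sided permutation p of 0.0286, the smallest these group sizes allow, and an adjusted p of 0.0572 over the 6 ratio tests, so none passed. These permutations ignored the pairing of knees, although every c-FosWT DMM animal also gave a contralateral library. The ratio of Plod2 to Plod1 counts was 2.86, 3.84, 5.45 and 7.31 in c-FosDCh DMM, 3.34, 2.2 and 2.41 in c-FosWT DMM and 4.79, 4.11, 4.18 and 3.07 in contralateral libraries, with overlap in each comparison. Its exact permutation p was 0.114 for c-FosDCh DMM against c-FosWT DMM, 0.0857 for c-FosWT DMM against contralateral and 0.6 for c-FosDCh DMM against contralateral libraries.

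**Figure D4:**
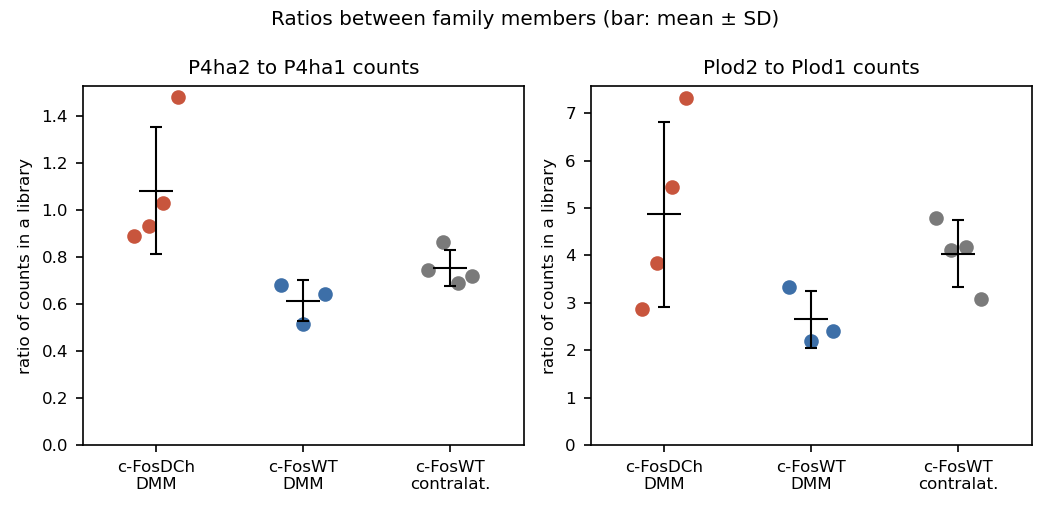
Ratio of P4ha2 to P4ha1 counts and of Plod2 to Plod1 counts in each library, with the mean and SD of each group as bars (c-FosDCh DMM n = 4, c-FosWT DMM n = 3, c-FosWT contralateral n = 4). The P4ha2 to P4ha1 ratio averages 1.08 in c-FosDCh DMM, 0.614 in c-FosWT DMM and 0.754 in contralateral libraries, with no overlap, while the Plod2 to Plod1 ratios overlap.

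Per kilobase of merged exon, P4ha2 made up 39.5 ± 6.52% of the summed P4ha levels in c-FosDCh DMM, 26 ± 3.19% in c-FosWT DMM and 31.1 ± 2.01% in contralateral libraries (SD, n = 4, 3 and 4). P4ha3 made up 4.4 ± 3.93, 9.62 ± 1.89 and 6.19 ± 3.82% in the same groups. The P4ha2 share depends on the length used. With the longest transcript, mean levels of P4ha2 were 109, 19.9 and 50.8 CPM per kb in these groups, beside 71.8, 23.7 and 51.1 for P4ha1. Plod2 was the largest lysyl hydroxylase share in each group, at 71.9 ± 8.69, 57.3 ± 7.48 and 68.6 ± 4.05%. In the P3h1 complex, P3h1 held 23.8 ± 2.94% in c-FosDCh DMM, 21 ± 1.01% in c-FosWT DMM and 19.3 ± 1.04% in contralateral libraries. Ppib held 37.8 ± 3.04, 44.9 ± 2.03 and 40.9 ± 1.74%, with every c-FosDCh DMM library below every c-FosWT DMM library (36 to 42.4% and 43.1 to 47.1%). The summed level of the 10 genes per 1000 CPM of the 4 collagen genes Col1a1, Col1a2, Col2a1 and Col3a1 was 41.9, 21.2, 80.2 and 91.1 CPM in c-FosDCh DMM, 26.4, 17.4 and 19.2 CPM in c-FosWT DMM and 50.6, 36.4, 37.2 and 29.1 CPM in contralateral libraries. Every c-FosWT DMM library was below every contralateral one on this measure, and the c-FosDCh DMM libraries ranged from within the c-FosWT DMM range to above all others.

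Across the 11 libraries, which came from 8 animals by their titles and so are not all independent, 30 relations of the 10 genes with Col1a1, Col2a1 and the marrow score were computed on log2 CPM. With the marrow score 8 of 10 passed, all negative. Plod2 had Pearson r = -0.92 (permutation p = 4e-05, adjusted p = 0.0009) and Spearman rho = -0.92 (permutation p = 0.00017), with r = -0.81 once the 2 libraries of most extreme score, counted from the median, were removed and -0.87 on deviations from group means. P4ha2 had r = -0.89 (permutation p = 6e-05, adjusted p = 0.0009) and rho = -0.83 (permutation p = 0.0028), with -0.79 and -0.82 under the same changes. The 2 genes that did not pass were Serpinh1 (r = -0.59, adjusted p = 0.0761) and P4ha3 (r = 0.18, adjusted p = 0.613). Without the 2 farthest libraries 4 of the 10 passed, and on deviations from group means 5 did. With Col2a1, 8 of 10 passed by Pearson r, all positive, and on deviations from group means 6 did. The highest was r = 0.82 for Plod3 (permutation p = 0.00201, adjusted p = 0.0099, rho = 0.66 with permutation p = 0.0306). Without the 2 farthest libraries 0 passed over the remaining 9, where these 8 genes had r of 0.56 to 0.72. By Spearman rho only P4ha1 (adjusted permutation p = 0.0451), Crtap (0.0451) and Ppib (0.0319) passed with Col2a1. Plod3 (0.0511) did not, nor did Plod1 (rho = 0.36, 0.304).

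With Col1a1, the most abundant collagen gene, Plod3 and Ppib passed by Pearson r, both negative. Plod3 had r = -0.67 (permutation p = 0.0241, adjusted p = 0.0425) and rho = -0.74 (permutation p = 0.0131). Ppib had r = -0.71 (permutation p = 0.0134, adjusted p = 0.0274) and rho = -0.73 (permutation p = 0.0147). Without the 2 farthest libraries 6 of the 10 passed, P4ha1, P4ha2, Plod1, Plod2, Plod3 and P3h1, with r of -0.92 to -0.80, while Ppib (r = -0.69, adjusted p = 0.0813) did not. On deviations from group means Plod3, Ppib and P4ha3 passed. By Spearman rho over all 11 libraries Plod3 (adjusted permutation p = 0.0328), Ppib (0.034), P4ha1 (0.0319), P4ha2 (0.0319), Plod2 (0.047) and Crtap (0.0287) passed, all negative. P4ha3 was the only gene of the 10 with a positive r (0.58, permutation p = 0.0609, adjusted p = 0.0761, rho = 0.31 with permutation p = 0.359). It was 0.74 on deviations from group means (adjusted p = 0.0205) and 0.22 without the 2 farthest libraries. Col1a1 and P4ha3 were both highest in c-FosDCh DMM replicate 2, at 53400 and 25.2 CPM.

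**Figure D5:**
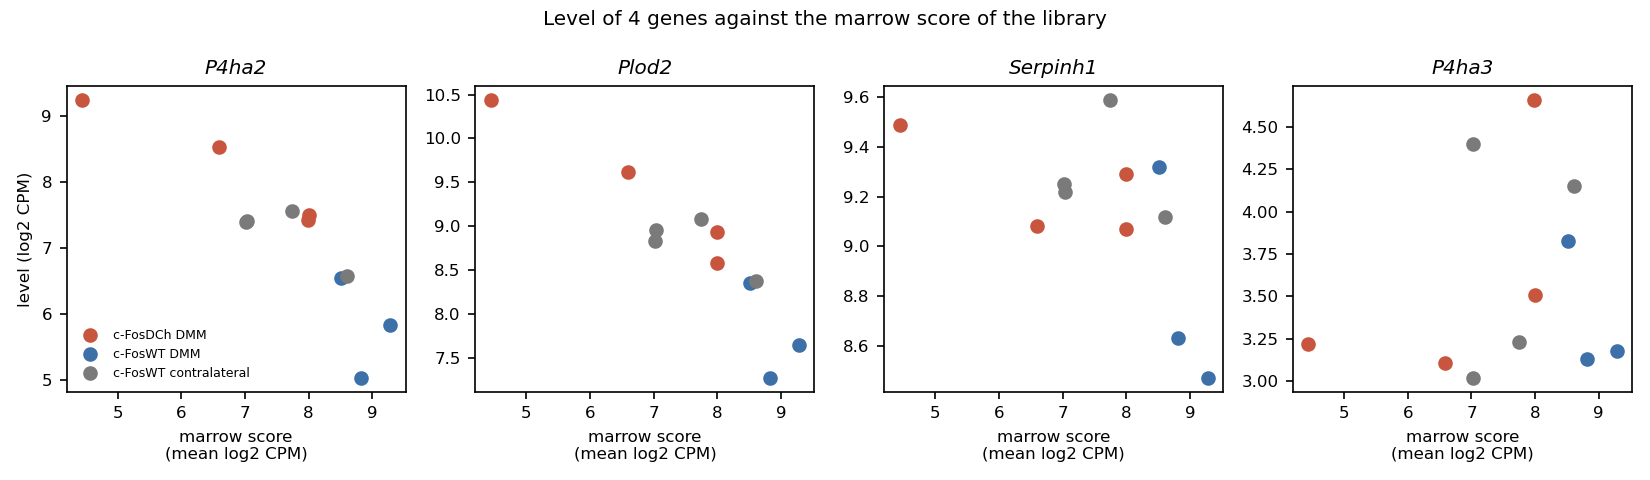
Level in log2 CPM of P4ha2, Plod2, Serpinh1 and P4ha3 against the marrow score of the library, averaged over erythroid and granulocyte markers, for 11 libraries coloured by group. P4ha2 and Plod2 fall along the score over all 11 libraries (r = -0.89 and -0.92), from c-FosDCh DMM replicate 4 at 4.44 to the c-FosWT DMM libraries at 8.51 to 9.28. Within c-FosWT DMM both are lowest at the middle score, 8.82, and within contralateral libraries both are highest at 7.74, not at the lowest score, 7.02. P4ha3 shows no such order over the 11 libraries (r = 0.18).

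The genes most like each of the 10 over the 11 libraries, by Pearson r of log2 CPM among all tested genes, are given as a description. P4ha2 was most like P3h2, a prolyl 3-hydroxylase gene outside the complex of P3h1, at an r that rounds to 1, with Arl6ip5 (1) and Arhgef5 (0.99). P3h2 itself averaged 289 ± 195 CPM in c-FosDCh DMM, 51.5 ± 24 CPM in c-FosWT DMM and 130 ± 33.2 CPM in contralateral libraries, a log2 fold change of 2.49 ± 0.56 between the operated groups (adjusted p = 0.0332). P4ha1 was most like Twsg1, Trpv4 and Cpq (0.99 each) and Plod2 most like Sec31a, Fndc3b and Shroom1 (0.99 each). For Crtap they were Nptn (0.99), Gm43188 and Rcn2 (0.98 each), and for Plod1 Acvr1, Erc1 and Gm48542 (0.98 each). For Plod3 they were Mvb12a (0.98) and Tmed9 (0.96), for P3h1 Plekha3 (0.98), and for Ppib Gm26645 (0.97) and Med28 (0.96). Serpinh1, with Gm32219 and Arid5b at 0.94, had less close neighbours. P4ha3 stood alone among the 10: its nearest genes were Ccn5 (0.96), Fndc1 (0.93) and Crabp2 (0.91), and its r with the other 9 ran from -0.24 to 0.24, whereas the other 9 ran from 0.47 to 0.98 among themselves.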

How the data were processed

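Cartilage was cut off by scalpel into TRI Reagent, and directional poly(A) libraries were read as 75 bp single reads, per the labels' protocols. The submitters' processing notes name bcl2fastq 2.19.1.403, STAR 2.6.1a, RSEM, DESeq2 1.22.2 and GRCm38; neither the annotation release nor the strand setting of the counting is stated there. The authors deposited whole-number counts per gene for each of the 11 libraries. The 4 lines that name no gene were left out; gene counts were 33.08 to 43.16% of the summed lines, reads without a feature 33.18 to 41.97%, unmapped 7.33 to 26.33%, multimapping 6.79 to 10.19% and ambiguous 0.62 to 0.94%. Gene IDs were matched to GENCODE M21 names (55240 of 55421).

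Here counts were tested with edgeR 4.0.16 (quasi-likelihood, robust, TMM, filterByExpr, group as the term, all 11 libraries, R 4.3.3) with Benjamini-Hochberg adjustment over 18125 genes and a threshold of 0.05. The standard error is the fold change divided by the root of F, intervals are 95%, and log2 CPM used a prior count of 2. Scores are mean log2 CPM over marker lists. Ratios were tested by exact permutation and correlations by 100000 permutations. limma 3.58.1 (voom) and DESeq2 1.42.0 were alternatives, with other scalings, no filter, score covariates and left-out libraries. The fits were tested on simulated data. The closest replicate pair differed by a chi-square of 31.03 per degree of freedom, so no library was counted as a copy.

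The 10 genes and the lists were chosen with earlier results of these data known. All 10 were named, and of the other lists the called genes with the smallest p (up to 4), or the 2 smallest where none was called, besides Col1a1, Col2a1, Fos and P4hb, and the genes most like each of the 10 (P3h2 among them). Colgalt1 and Hspa5 were named after their values were seen. The ratios and the removal of the 2 muscle-rich or the 2 marrow-poorest c-FosDCh libraries were chosen after the data were seen. Titles pair the c-FosWT knees by animal (3 pairs); deviations of the paired libraries from their group means had r of -0.17, -0.18 and 0.25. The c-FosDCh DMM replicates were numbered in accession order, since the source labels give 2 of the 4 libraries the same number under titles that name different animals. Sequences are from RefSeq (GRCm38.p6).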

Additional observations from a re-analysis of the deposited data

Results flagged for a closer look

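P4ha3 in c-FosDCh DMM was flagged because 1 of the 4 libraries, replicate 2, stood far from the others at 25.2 CPM, where the other 3 had 11.2, 8.51 and 9.21 CPM. Its gap to the nearest library was 0.836 of the group's range, just over the critical value of Dixon's test for 4 samples (0.829). Of 20 groups of 4 libraries looked at, this was the 1 flag, and chance flags about 1 in 20. The same library had the highest Col1a1 level, 53400 CPM, and the part of this in the P4ha3 level was not tested.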

How the results depend on the processing

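Between c-FosDCh DMM and c-FosWT DMM, 7 of the 10 genes passed with RLE or upper quartile scaling, DESeq2 or limma-voom, and 5 with library totals alone or no filter. With the marrow, skeletal muscle or chondrocyte score as a covariate, with only the 2 groups compared, without the 2 muscle-rich libraries, or without c-FosDCh DMM replicates 3 and 4, 0 of the 10 and 0 of all genes passed. Leaving out 1 library gave 0 to 8 of the 10 and 0 to 4605 of all genes. It was 0 without contralateral replicate 1, c-FosWT DMM replicate 2 or 3, or c-FosDCh DMM replicate 3 or 4, and 4 without contralateral replicate 3. The 2616 genes called became 1443 without a filter and 5358 in DESeq2. Higher calls were 1929 of 2616, but 1176 of 2157 with library totals alone, where the median of all genes was -0.18, and 2014 of 3501 in limma-voom.

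Between c-FosWT DMM and contralateral knees, DESeq2 called 1 of the 10 (Crtap) and 902 genes, and the other alternatives 0. The replicate block by animal gave 0 calls (3 pairs) and changed no call. Between c-FosDCh DMM and contralateral knees, DESeq2 called 41 genes and 0 of the 10, and leaving out 1 library 0 to 1 gene.

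Direction turned only for values near 0 or resting on few libraries; the cause was not tested. Between c-FosDCh DMM and contralateral knees, Crtap (0.03) was -0.14 with library totals, -0.13 with the marrow score, -0.04 without the muscle-rich libraries, -0.26 without c-FosDCh DMM replicates 3 and 4, and -0.08 to 0.14 when 1 library was left out. P4ha3 (-0.04) was 0.11 and 0.09 with the marrow and muscle scores, 0.21 and 0.41 without those pairs of libraries, and -0.53 to 0.22 when 1 was left out. Ppib (-0.03) was 0.01 with the chondrocyte score and -0.08 to 0.08 with 1 library left out, and Serpinh1 -0.13 to 0.04. Without c-FosDCh DMM replicates 3 and 4, Plod2 was -0.05 and P4ha1 -0.07. P4ha3 between operated knees was -0.13 to 0.59 with 1 library left out, its r with the marrow score was -0.18 without the 2 farthest libraries, and the log2 difference in Plod2 to Plod1 ratio between c-FosDCh DMM and contralateral knees was -0.03 to 0.43. Of 30 correlations, 18 passed by Pearson r, 10 without the 2 farthest libraries and 14 on deviations from group means. Between 5 and 24 passed when 1 library was left out (5 without c-FosWT DMM replicate 2, 10 and 11 without c-FosDCh DMM replicates 3 and 4). With 3 or 4 libraries a group, exact tests of a single value cannot go below 0.0286.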
